A study of Homo sapiens with 8 samples.

Results

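The 39 genes described here encode the lysosome and the factors that switch on its genes. They are the 4 MiT/TFE transcription factors (TFEB, TFE3, MITF and TFEC), 7 lysosomal membrane proteins, 8 cathepsins, 6 glycosidases, 5 other hydrolases and their precursors, and the V-ATPase, the proton pump that acidifies the lysosome, with 3 genes of its membrane sector V0 or its accessory proteins and 6 of its cytosolic sector V1. They were chosen by name for these roles, with earlier results of these data known, out of 27776 genes listed over both cell lines. RNA was sequenced from 769-P and CAKI-1, established human cell lines labelled as clear cell renal cell carcinoma, and the labels name no genetic change in any sample. Each line was given branched-chain amino acids (BCAA) for 16 hours, as leucine and isoleucine (0.38 mM each) with valine (0.17 mM), or was left without them, with 2 libraries per condition and 8 in all. The study's methods prepared BCAA-depleted medium from RPMI 1640 free of amino acids with dialysed serum, and whether the other amino acids were added back is not given in the sources used here. The labels do not say whether the libraries of a condition came from separate cultures, so the p-values measure the spread between these samples only, which may be technical.

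Lysosomes degrade proteins, lipids and glycans with hydrolases that work at the low pH set by the V-ATPase. The MiT/TFE factors bind E-box motifs, of which GTCACGTG is the preferred form, near the start of many lysosomal genes, and this set of targets is known as the CLEAR network. When amino acids, leucine among them, are plentiful, the kinase complex mTORC1 is recruited to the lysosomal surface by the Rag GTPases and phosphorylates TFEB and TFE3, which keeps them in the cytoplasm. In starved cells the unphosphorylated factors enter the nucleus. RNA levels of the factors themselves report neither their phosphorylation nor their place in the cell.

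The E-box is shown first because it is the sequence that links the factors with the other genes. RefSeq promoters of GRCh38.p14, from 250 bases before to 50 after the start of the gene, were found for 29 of the 39 genes. The letters CACGTG, on either strand, occurred in 9 of the 29 (31.0%), against 7.43% of 27305 promoters of the same length. The longer form GTCACGTG, which contains the shorter one and was searched on both strands, occurred in 6 of the 29 (20.7%), against 2.53% of all promoters. The genes were chosen for lysosomal roles, and the CLEAR network of lysosomal genes is known by this motif. The higher shares therefore follow in part from that choice and are not a result of these data. These 6 genes are LAMP1, MCOLN1, CTSA, CTSD, GAA and ATP6V0D1, and an 80-base window of each is printed in the direction of the gene, with every match to the longer form, on either strand, in capitals.
LAMP1, chr13:113297009-113297088, plus strand: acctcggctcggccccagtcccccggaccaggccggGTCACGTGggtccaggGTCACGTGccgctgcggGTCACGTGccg
MCOLN1, chr19:7522545-7522624, plus strand: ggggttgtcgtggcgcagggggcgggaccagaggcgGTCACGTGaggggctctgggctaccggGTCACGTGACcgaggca
CTSA, chr20:45891255-45891334, plus strand: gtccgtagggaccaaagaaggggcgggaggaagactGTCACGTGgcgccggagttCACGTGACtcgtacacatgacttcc
CTSD, chr11:1763931-1764010, minus strand: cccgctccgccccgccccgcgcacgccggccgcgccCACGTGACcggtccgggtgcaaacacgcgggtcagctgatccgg
GAA, chr17:80101512-80101591, plus strand: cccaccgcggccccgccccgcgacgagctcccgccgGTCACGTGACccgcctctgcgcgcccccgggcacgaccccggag
ATP6V0D1, chr16:67481175-67481254, minus strand: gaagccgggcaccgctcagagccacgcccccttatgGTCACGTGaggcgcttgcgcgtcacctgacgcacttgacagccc
The motif began 47 bases before the start of CTSD, 44 before that of CTSA and 61 before that of ATP6V0D1, at the first match in each. LAMP1 held 6 matches in its 300 bases, 3 of them in the window shown. In MCOLN1 and GAA the motif also stood as a palindrome, read on both strands at once, and GAA held it at 33 and 78 bases before its start. CD63, CTSF and NEU1 held the shorter form only. A match describes these letters and is not evidence of binding.

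With BCAA, more of the genes were called lower than higher in both lines. The estimates leaned the same way only in CAKI-1, where 26 lay below 0 and 12 above, while in 769-P 19 lay below and 18 above. Over all genes tested, 48.7% of the estimates lay above 0 in 769-P and 49.2% in CAKI-1. In 769-P, 37 of the 39 genes were listed and all 37 passed the filter on low values (a mean normalised count of at least 1), of which 13 were called lower and 8 higher, with 16 not called. Over all 22391 genes tested in 769-P, 18.2% were called lower and 20.3% higher, against 35.1% and 21.6% of these genes. In CAKI-1, 38 genes were listed and tested, of which 17 were called lower, 2 higher and 19 not called. There the background over 21347 genes was 9.05% lower and 10.8% higher, against 44.7% and 5.26% of these genes. The genes had a median normalised count of 3994 in 769-P and 3600 in CAKI-1. The background took in genes down to a mean of 1, and the shares were not matched for level. At 1.5-fold or more, 3 of 37 were called lower and 3 higher in 769-P, beside 1911 and 1984 of 22391. In CAKI-1, 5 of 38 were lower and 2 higher at that fold, beside 481 and 725 of 21347. The median log2 fold change of the genes was -0.0020 in 769-P and -0.19 in CAKI-1, beside -0.022 and -0.0085 over all genes tested. CTSF is not analysed here in 769-P, nor NEU1 in either line. These counts rest on the spread of 4 libraries. With any 1 CAKI-1 library left out and only the 3 remaining libraries of that line fitted, limma called none of the 38 genes (0 higher, 0 lower), while 12 to 18 were lower and 2 to 4 higher at an unadjusted p under 0.05. The same fits in 769-P called 5 lower and 4 to 8 higher. A gene was called at an adjusted p under 0.05 from limma on log2(normalised count + 1), a scale on which the change of low genes is understated, and fold changes are given with BCAA over without as estimate ± SE with 2 libraries per condition.

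**Figure D1:**
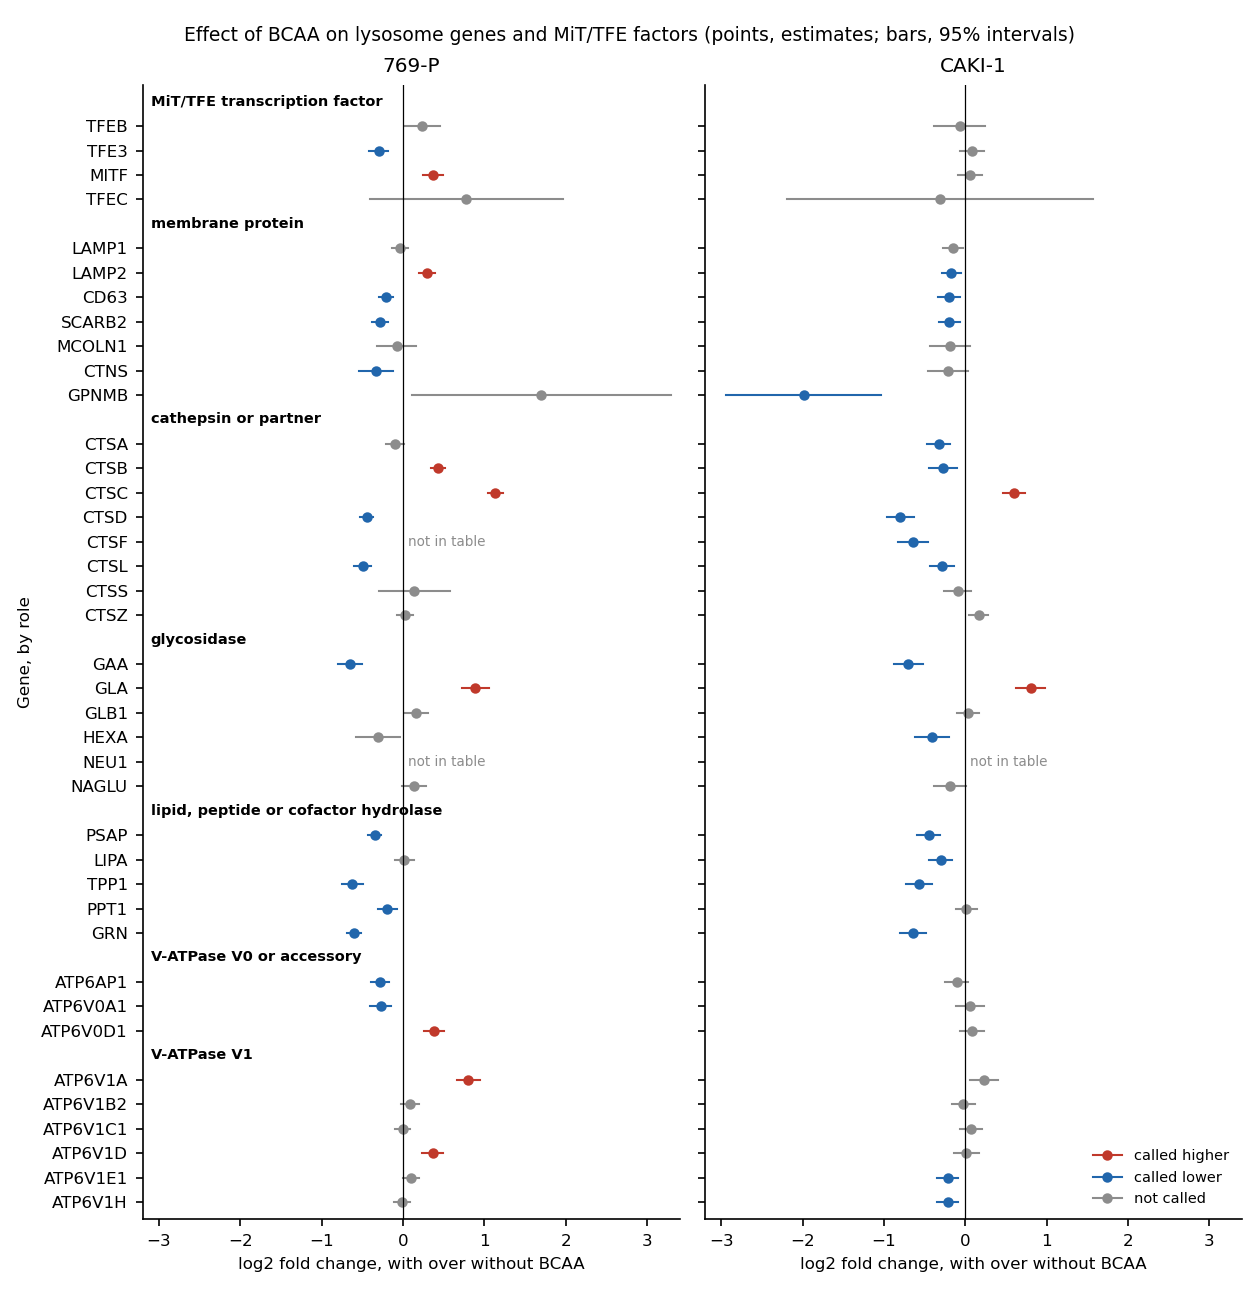
Log2 fold change with BCAA over without BCAA (x axis) of each gene, ordered by role, in 769-P (left) and CAKI-1 (right). Points are limma estimates from 2 libraries per condition, bars are 95% intervals, red and blue mark genes called higher and lower, and grey those not called. GAA, TPP1, GRN, PSAP and CTSD lie left of 0 in both panels, CTSC and GLA lie right of 0 in both, and only the low-count genes GPNMB and TFEC have intervals wider than 1 unit to either side of the estimate in at least 1 line.

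Library depth, counted on the genes of the tables, ran from 30979773 to 64256834 reads. In 769-P the libraries with BCAA were deeper (64256834 and 55829324 reads) than those without (39062721 and 40130258), so depth and condition went together in that line. With reads thinned to 30979773 per library, 13 of the genes were called lower and 9 higher in 769-P, beside 3811 and 4107 of all genes. In CAKI-1 the thinned reads gave 13 lower and 2 higher, beside 1383 and 1756 of all genes. In each line 6 of 8 renal carcinoma markers were above 3 reads in at least 1 library, PAX8 and VIM among them, and 2 in 769-P were called lower and 2 higher, against 3 lower and none higher in CAKI-1. The 8 together made up 2655 and 2794 RPM (reads scaled to a common library total) with BCAA and 2896 and 2816 without in 769-P, and 2031 and 2125 with BCAA and 3075 and 2946 without in CAKI-1. The sum was lower in both libraries with BCAA in each line, as was that of the lysosome genes, and the gap was wider in CAKI-1. CA9 had no listed value in either line. Macrophages are rich in lysosomes, and of 10 of their markers 4 had no listed value in 769-P and 6 in CAKI-1, with AIF1, TYROBP, MRC1 and LYZ among them in both. The 10 summed to between 5.23 and 8.26 RPM in 769-P, and between 1.78 and 3.71 in CAKI-1. In both lines this sum was higher in both libraries with BCAA. MITF is the master factor of melanocytes, and 6 of their markers summed to 1.34 to 2.34 RPM in 769-P and 1.11 to 1.92 in CAKI-1, with no listed value for TYR and SLC45A2. In both lines this sum was lower in both libraries with BCAA, and the part of any of these marker sets in the results was not tested. Fewer transcripts per cell and fewer cells of a type cannot be told apart in bulk RNA.

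The 39 genes together took 7268 and 7484 RPM with BCAA and 8137 and 8174 without in 769-P. In CAKI-1 they took 5825 and 6409 with BCAA and 7404 and 7144 without. Both sums were lower in every library with BCAA than in either library without. PSAP supplied a large part of both sums, and the roles went different ways. In 769-P the hydrolases and precursors that include PSAP took 2812 and 2984 RPM with BCAA and 3702 and 3694 without. The sums of membrane proteins and MiT/TFE factors were also lower there. Those of cathepsins, glycosidases, V0 or accessory genes and V1 genes were higher (V1 729 and 742 with BCAA, 654 and 664 without). In CAKI-1 the MiT/TFE sum was higher, and the V0 and V1 sums overlapped. Counted per kilobase of exon, the mean level of PSAP without BCAA was 46024 in 769-P, ahead of CD63 at 15541, CTSD at 12694 and GRN at 5543. In CAKI-1 the order by level per kilobase was PSAP at 26106, CD63 at 9654, GRN at 4759, CTSB at 3367 and CTSZ at 3360.2. The lowest levels per kilobase were those of GPNMB and TFEC, at 0.513 and 1.07 in 769-P and at 6.29 and 0.514 in CAKI-1.

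The MiT/TFE factors moved little at the RNA level, and in different directions in 769-P. TFE3 (chrX:49028726-49043486, minus strand, GRCh38), by level per kilobase the most abundant of the 4 in both lines, had normalised counts of 4938 and 4530.5 with BCAA and 5943 and 5707 without in 769-P (log2 fold change -0.30 ± 0.054, adjusted p = 0.00074). Every library with BCAA was below both libraries without it. MITF (chr3:69739435-69968337, plus strand), the factor best known from melanocytes, had 2548 and 2591 with BCAA and 1997 and 1971 without in the same line (log2 fold change 0.37 ± 0.056, adjusted p = 0.00018). Its libraries with BCAA lay above those without. TFEB, the factor for which the starvation response was first worked out, had 625 and 557 with BCAA and 498 and 500.2 without in 769-P (log2 fold change 0.24 ± 0.098, adjusted p = 0.074). The libraries did not overlap, but the difference did not pass the threshold. TFEC, a family member of restricted expression, was near the detection limit in 769-P, at 12.9 and 20.5 with BCAA and 11.2 and 7.34 without (log2 fold change 0.78 ± 0.54, adjusted p = 0.3).

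None of the 4 factors was called in CAKI-1, where 2 estimates lay above 0 and 2 below. TFE3 had 3855 and 4275 with BCAA and 3807 and 3863 without (log2 fold change 0.082 ± 0.066, adjusted p = 0.45). MITF had 2642 and 2396 with BCAA and 2424 and 2414 without (log2 fold change 0.056 ± 0.069, adjusted p = 0.64). For TFEB the counts were 289 and 234 with BCAA and 275 and 272 without (log2 fold change -0.071 ± 0.14, adjusted p = 0.79). In all 3 genes the libraries with and without BCAA overlapped. TFEC gave 1.95 and 3.33 with BCAA and 7.60 and 1.29 without (log2 fold change -0.31 ± 0.85, adjusted p = 0.85), values that stand for between 1 and 8 reads. The difference between lines, tested as an interaction in limma with all 8 libraries fitted together, was called for TFE3 (-0.38 ± 0.087, adjusted p = 0.0066) and MITF (0.32 ± 0.086, adjusted p = 0.018) and not for TFEB (0.31, 95% interval -0.072 to 0.69). Over the 19406 genes tested in both lines, 10.9% had a higher and 10.1% a lower log2 fold change in 769-P than in CAKI-1.

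**Figure D2:**
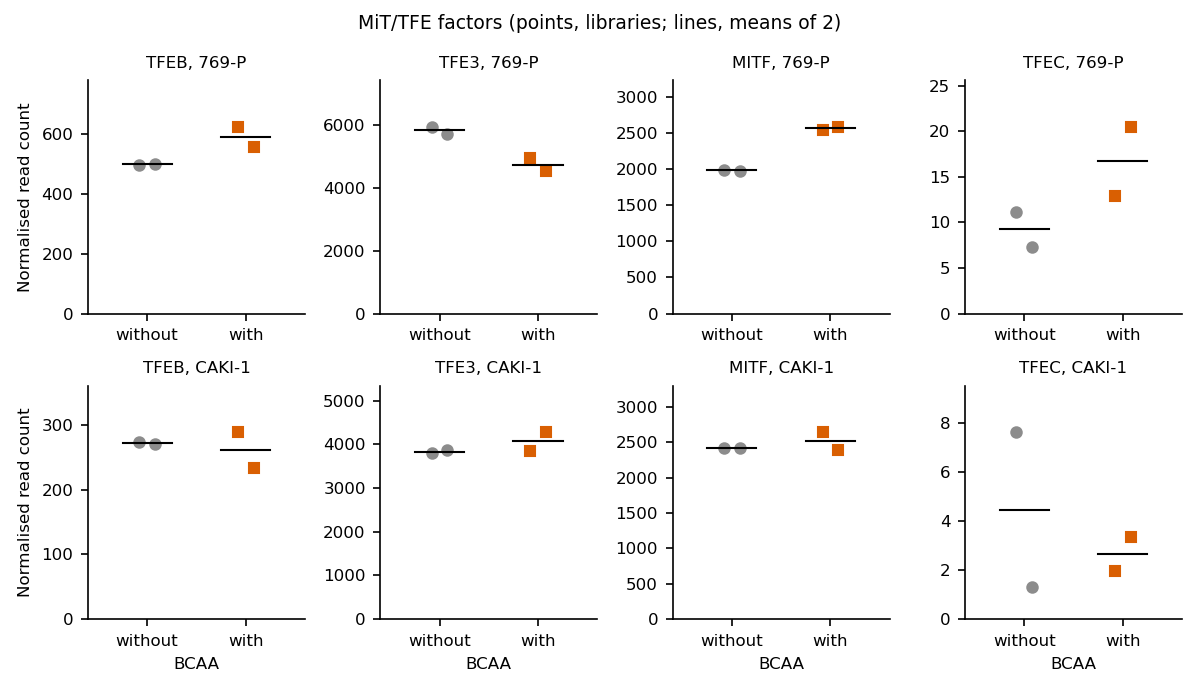
Normalised read count (y axis, from 0, each panel on its own scale) of the 4 MiT/TFE factors without and with BCAA in 769-P (top row) and CAKI-1 (bottom row). Points are single libraries and lines are means of 2. The 769-P points separate for all 4 genes, with TFE3 lower and MITF higher with BCAA, while the CAKI-1 points overlap for all 4.

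Among the membrane proteins, CD63 and SCARB2 were called lower with BCAA in both lines. CD63, a tetraspanin of late endosomes and lysosomes, had 35492 and 35329.5 with BCAA and 40181 and 41657 without in 769-P (log2 fold change -0.21 ± 0.038, adjusted p = 0.00079) and 20837 and 23492 with BCAA and 25249 and 25589 without in CAKI-1 (log2 fold change -0.20 ± 0.064, adjusted p = 0.048). SCARB2, the receptor that carries glucocerebrosidase to the lysosome, had 8589 and 8162 with BCAA and 9982 and 10378 without in 769-P (log2 fold change -0.28 ± 0.046, adjusted p = 0.00035) and 7177 and 7805 with BCAA and 8516 and 8648 without in CAKI-1 (log2 fold change -0.20 ± 0.059, adjusted p = 0.037). The groups did not overlap in any of these comparisons. CTNS, the cystine exporter, was called lower in 769-P, at 447 and 497 with BCAA and 601 and 586 without (log2 fold change -0.33 ± 0.098, adjusted p = 0.018). In CAKI-1 it had -0.21 ± 0.11, adjusted p = 0.24.

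LAMP2, one of the major glycoproteins of the lysosomal membrane, was called in opposite directions. It had 7069 and 7033 with BCAA and 5671 and 5801 without in 769-P (log2 fold change 0.30 ± 0.045, adjusted p = 0.00018) and 8149 and 8089 with BCAA and 9198 and 9146 without in CAKI-1 (log2 fold change -0.18 ± 0.053, adjusted p = 0.038), and the difference between lines was 0.47 ± 0.063, adjusted p = 0.00014. LAMP1, its relative, was not called in either line (-0.035 ± 0.046, adjusted p = 0.6 in 769-P and -0.15 ± 0.057, adjusted p = 0.086 in CAKI-1), nor was MCOLN1, the lysosomal calcium channel (-0.075 ± 0.11, adjusted p = 0.64 and -0.19 ± 0.11, adjusted p = 0.28). GPNMB (chr7:23235967-23275108, plus strand), a transmembrane glycoprotein known as a target of MITF, showed the largest estimates of all 39 genes on few reads. It had 7.78 and 9.98 with BCAA and 36.1 and 39.9 without in CAKI-1 (log2 fold change -1.99 ± 0.43, adjusted p = 0.0076), and both libraries with BCAA were far below those without. In 769-P it had 13.6 and 8.55 with BCAA and 4.97 and 1.22 without, from 18 reads to 1 read, and was not called (log2 fold change 1.70 ± 0.73, adjusted p = 0.089). The difference between lines was called (3.69 ± 0.84, adjusted p = 0.0065).

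Here and below, the 16 alternatives of a gene do not include the fits of only the 3 remaining libraries of a line. With 1 library left out, their spread was taken from all others of both lines. The CAKI-1 calls of 3 of these membrane genes were lost in many of the 16 alternatives (10 for CD63, 9 for SCARB2 and 7 for LAMP2), with direction kept. Among them were the fits without with-BCAA replicate 1 (CD63 -0.11, adjusted p 0.11, and SCARB2 -0.14, adjusted p 0.11), without without-BCAA replicate 1 (CD63 -0.21, 0.059, SCARB2 -0.21, 0.054, and LAMP2 -0.17, 0.061) and without without-BCAA replicate 2 (CD63 -0.19, 0.087, SCARB2 -0.19, 0.084, and LAMP2 -0.18, 0.052). In 769-P, CD63 lost its call without without-BCAA replicate 2 (-0.18, adjusted p 0.079). Leaving out 1 library also ended the call of GPNMB for each of the 4 CAKI-1 libraries (adjusted p 0.057 to 0.12 with log2 fold changes of -1.83 to -2.15) and that of CTNS in 769-P without with-BCAA replicate 1 (adjusted p 0.16), without-BCAA replicate 1 (0.1) or without-BCAA replicate 2 (0.067).

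The cathepsins split, with CTSC higher and CTSD and CTSL lower with BCAA in both lines. CTSC (chr11:88293592-88337787, minus strand), a dipeptidyl peptidase that activates serine proteases, had 16227 and 16843 with BCAA and 7553 and 7522 without in 769-P, which was 2.19-fold higher with BCAA (log2 fold change 1.13 ± 0.042, adjusted p = 1.5e-09). In CAKI-1 it had 3406 and 3603 with BCAA and 2328 and 2298 without, which was 1.51-fold higher (log2 fold change 0.60 ± 0.063, adjusted p = 7.8e-05). The rise was larger in 769-P by the interaction test (0.53 ± 0.070, adjusted p = 0.00012). CTSD (chr11:1752752-1764573, minus strand), the aspartic protease of the lysosome, had 29004 and 29263 with BCAA and 39439 and 39923 without in 769-P, 1.36-fold lower with BCAA (log2 fold change -0.45 ± 0.037, adjusted p = 1.2e-06). In CAKI-1 it had 5181 and 6075 with BCAA and 10145 and 9394 without, 1.74-fold lower (log2 fold change -0.80 ± 0.076, adjusted p = 3.9e-05), a larger fall than in 769-P (0.35 ± 0.092, adjusted p = 0.014). CTSL, a cysteine protease, had 4189.9 and 4128 with BCAA and 5904 and 5815 without in 769-P (log2 fold change -0.49 ± 0.047, adjusted p = 3.9e-06) and 3162 and 3292 with BCAA and 3738 and 4127 without in CAKI-1 (log2 fold change -0.28 ± 0.067, adjusted p = 0.011).

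In CAKI-1, 5 of the 8 cathepsins were called lower, CTSD and CTSL included, beside 9.05% of all genes tested. CTSF, a cysteine protease tested in this line only, had 787 and 876 with BCAA and 1272 and 1325 without (log2 fold change -0.64 ± 0.084, adjusted p = 0.00035). CTSA, the serine carboxypeptidase that protects β-galactosidase and sialidase, had 3547 and 3939.9 with BCAA and 4800.4 and 4597 without (log2 fold change -0.33 ± 0.067, adjusted p = 0.005), and its value in 769-P was -0.097 ± 0.050, adjusted p = 0.16. CTSB, a cysteine protease, was called higher in 769-P, at 20540.0 and 20919 with BCAA and 15244 and 15618 without (log2 fold change 0.43 ± 0.039, adjusted p = 3.4e-06). In CAKI-1 it was called lower, at 18865 and 22739.8 with BCAA and 25588 and 24429 without (log2 fold change -0.27 ± 0.079, adjusted p = 0.032), with a difference between lines of 0.70 ± 0.097, adjusted p = 0.00018. The CAKI-1 call of CTSB was lost in 6 of 16 alternatives, among them the fits without with-BCAA replicate 1 (log2 fold change -0.14, adjusted p 0.075) and without without-BCAA replicate 1 (-0.24, adjusted p 0.081). CTSS and CTSZ were not called in either line, with estimates between -0.095 and 0.16. Exons of CTSD and CTSA overlap those of other annotated genes over 1304 bases on the same strand (CTSD) and 1668 bases on the opposite strand (CTSA). The strand setting of the counting is not given in the sources used here. The overlaps may therefore have changed the counts of both genes.

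Of the glycosidases, which cut sugars from glycolipids, glycoproteins and glycogen, GLA rose and GAA fell in both lines. GLA (chrX:101397803-101408012, minus strand), the α-galactosidase that degrades globotriaosylceramide, had 1519 and 1602 with BCAA and 886 and 802 without in 769-P, 1.85-fold higher with BCAA (log2 fold change 0.89 ± 0.076, adjusted p = 1.8e-06). In CAKI-1 it had 1488 and 1364 with BCAA and 800.2 and 830.0 without, 1.75-fold higher (log2 fold change 0.80 ± 0.081, adjusted p = 5.8e-05). The interval of the difference between lines spanned 0 (0.082, 95% interval -0.16 to 0.32). GAA (chr17:80101556-80119879, plus strand), the acid α-glucosidase that degrades glycogen, had 1243 and 1350.2 with BCAA and 2005 and 2067 without in 769-P, 1.57-fold lower with BCAA (log2 fold change -0.65 ± 0.066, adjusted p = 7.7e-06). In CAKI-1 it had 3362 and 4002 with BCAA and 6189 and 5744 without, 1.63-fold lower (log2 fold change -0.70 ± 0.081, adjusted p = 0.00015), and here too the interval of the difference spanned 0 (0.049, 95% interval -0.19 to 0.29). HEXA, the α-subunit of β-hexosaminidase, was called lower in CAKI-1, at 592 and 676 with BCAA and 836 and 847 without (log2 fold change -0.41 ± 0.095, adjusted p = 0.011). In 769-P its libraries overlapped (log2 fold change -0.30 ± 0.12, adjusted p = 0.075). The CAKI-1 call of HEXA was lost without with-BCAA replicate 1 (adjusted p 0.18), without-BCAA replicate 1 (0.09) or without-BCAA replicate 2 (0.11), and 1637 of its exonic bases are overlapped on the opposite strand, HEXA-AS1 among the genes there. GLB1 and NAGLU were not called in either line, with estimates of 0.16 and 0.14 in 769-P and 0.032 and -0.19 in CAKI-1.

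Of the remaining hydrolases and precursors, 4 of 5 were called lower and none higher in each line. Of all genes tested, 18.2% were lower and 20.3% higher in 769-P, and 9.05% and 10.8% in CAKI-1. PSAP (chr10:71816298-71851375, minus strand), the precursor of the saposins that present lipids to hydrolases, had 114409 and 120081 with BCAA and 148705 and 149436 without in 769-P (log2 fold change -0.35 ± 0.037, adjusted p = 1.2e-05) and 58719 and 65305 with BCAA and 85501 and 83616 without in CAKI-1 (log2 fold change -0.45 ± 0.064, adjusted p = 0.0006). TPP1 (chr11:6612763-6619485, minus strand), a tripeptidyl peptidase, had 2664 and 2680.0 with BCAA and 3899 and 4340.1 without in 769-P, 1.54-fold lower (log2 fold change -0.62 ± 0.060, adjusted p = 4.6e-06). Its counts in CAKI-1 were 1799 and 2019 with BCAA and 2899.7 and 2773 without, 1.49-fold lower (log2 fold change -0.57 ± 0.073, adjusted p = 0.0003). GRN (chr17:44345086-44353102, plus strand), progranulin, a glycoprotein processed to granulins in the lysosome, had 13569.8 and 13313 with BCAA and 20289.8 and 20504 without in 769-P, 1.52-fold lower (log2 fold change -0.60 ± 0.039, adjusted p = 1.7e-07). In CAKI-1 GRN had 10428 and 12027 with BCAA and 18304 and 16721 without, 1.56-fold lower (log2 fold change -0.64 ± 0.073, adjusted p = 0.00014). In all 3 genes both libraries with BCAA lay below both without, in each line. Under quantile normalization the 769-P value of PSAP shrank to -0.072 and was not called (adjusted p 0.055). No other of the 16 alternatives ended that call, and fits of only 3 libraries are not among the 16. Exons of TPP1 are overlapped by another gene over 756 bases on the same strand. The intervals of the difference between lines spanned 0 for PSAP (0.10, 95% interval -0.062 to 0.27), TPP1 (-0.049, 95% interval -0.26 to 0.16) and GRN (0.042, 95% interval -0.15 to 0.23).

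LIPA, the acid lipase that frees cholesterol from its esters, was called lower in CAKI-1, at 3110.2 and 3281 with BCAA and 4061 and 3835 without (log2 fold change -0.30 ± 0.063, adjusted p = 0.0056). Its estimate in 769-P was 0.014 ± 0.053, adjusted p = 0.87, and the difference between lines was called (0.32 ± 0.079, adjusted p = 0.011). PPT1, the thioesterase that removes palmitate from proteins, was called lower in 769-P, at 3704 and 3757 with BCAA and 4131 and 4385 without (log2 fold change -0.19 ± 0.052, adjusted p = 0.011). In CAKI-1 it had 0.011 ± 0.059, adjusted p = 0.93, and the difference between lines was not called (-0.20, 95% interval -0.37 to -0.037). The 769-P call of PPT1 was lost without with-BCAA replicate 1 (adjusted p 0.061) or without-BCAA replicate 2 (0.13), and 1189 of its exonic bases overlap CAP1 on the opposite strand.

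**Figure D3:**
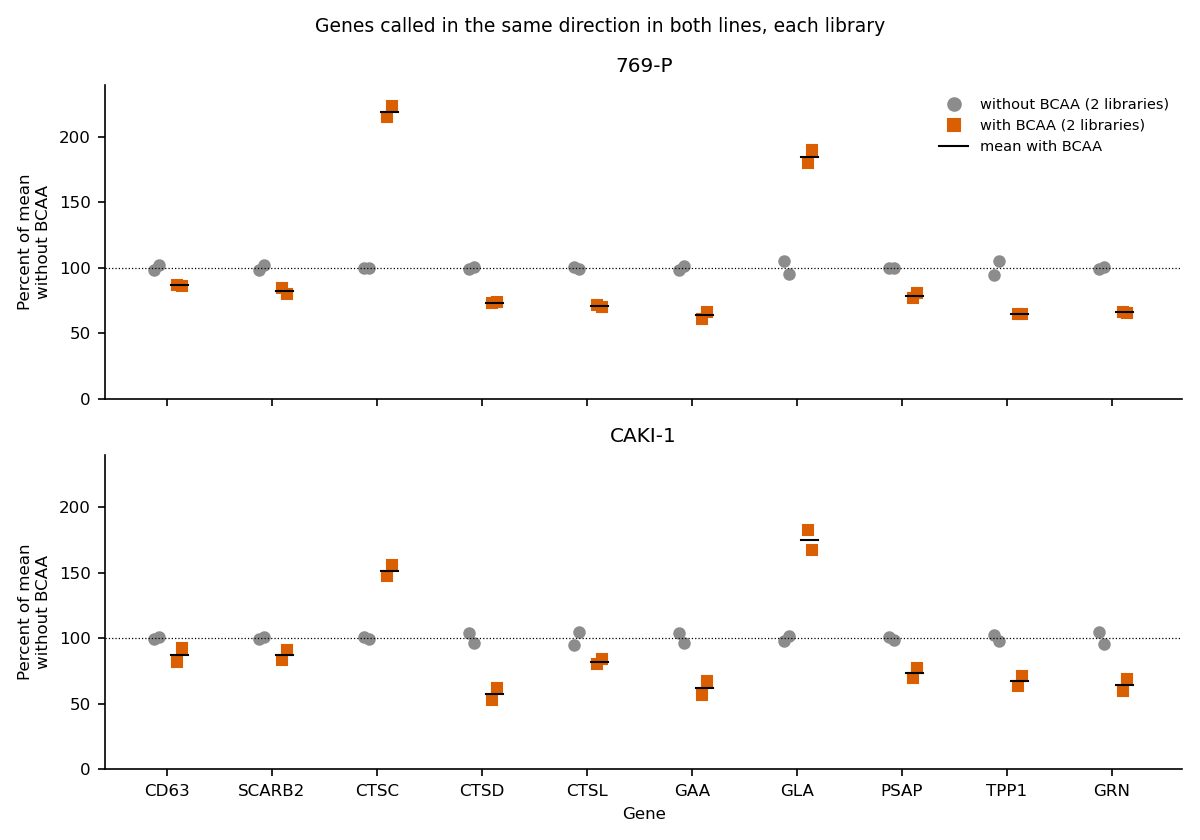
Value of each library as a percent of the mean of the 2 libraries without BCAA (y axis, from 0) for the 10 genes called in the same direction in both lines, in 769-P (top) and CAKI-1 (bottom). Grey circles are libraries without BCAA, orange squares libraries with BCAA, and black lines their means. Orange squares lie above 100 for CTSC and GLA and below 100 for the other 8 genes, and do not overlap the grey circles in either line.

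The V-ATPase genes were called in both directions in 769-P. Of the V0 and accessory genes, 2 were called lower and 1 higher in 769-P, beside 18.2% and 20.3% of all genes tested. None of the 3 was called in CAKI-1, where 9.05% of all genes were lower and 10.8% higher. ATP6AP1, an accessory subunit, had 2734 and 2748 with BCAA and 3298 and 3374 without in 769-P (log2 fold change -0.28 ± 0.052, adjusted p = 0.00086). ATP6V0A1, the a-subunit of the proton channel, had 2003 and 1916 with BCAA and 2413 and 2329.6 without (log2 fold change -0.28 ± 0.059, adjusted p = 0.0025). Both were lower with BCAA. ATP6V0D1, the d-subunit that joins the rotor to the stalk, had 4842 and 4681 with BCAA and 3474 and 3833 without (log2 fold change 0.38 ± 0.057, adjusted p = 0.00018) and was higher. In CAKI-1 the estimates were -0.11 for ATP6AP1, 0.062 for ATP6V0A1 and 0.084 for ATP6V0D1. The difference between lines was called for ATP6V0A1 (-0.34 ± 0.092, adjusted p = 0.019) and ATP6V0D1 (0.30 ± 0.087, adjusted p = 0.025).

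Of the 6 V1 genes, 2 were called higher in 769-P, beside 20.3% of all genes tested. In CAKI-1, 2 others were called lower, beside 9.05%. ATP6V1A, the catalytic subunit, had 4433 and 4610.0 with BCAA and 2423 and 2763 without in 769-P, 1.75-fold higher with BCAA (log2 fold change 0.80 ± 0.065, adjusted p = 1e-06). In CAKI-1 its libraries did not overlap either, at 3299.9 and 2959 with BCAA and 2809 and 2529 without, but the adjusted p missed the threshold (log2 fold change 0.23 ± 0.076, adjusted p = 0.057). The difference between lines was called (0.58 ± 0.11, adjusted p = 0.0018). ATP6V1D, part of the central rotor, had 2535 and 2636 with BCAA and 1969 and 2049.6 without in 769-P (log2 fold change 0.36 ± 0.058, adjusted p = 0.00029) and an estimate of 0.010 in CAKI-1 (difference 0.35 ± 0.087, adjusted p = 0.011). ATP6V1E1, a subunit of the peripheral stalk, was called lower in CAKI-1, at 3287 and 3413 with BCAA and 3901 and 3877 without (log2 fold change -0.22 ± 0.059, adjusted p = 0.025), with 0.097 ± 0.043, adjusted p = 0.1 in 769-P and a called difference (0.31 ± 0.068, adjusted p = 0.0047). ATP6V1H, a regulatory subunit, was called lower there too, at 3994 and 4232 with BCAA and 4783 and 4757 without (log2 fold change -0.21 ± 0.059, adjusted p = 0.026), with -0.014 ± 0.045, adjusted p = 0.84 in 769-P. Under median centring the CAKI-1 calls of ATP6V1E1 (-0.17, adjusted p 0.074) and ATP6V1H (-0.17, adjusted p 0.07) were lost. ATP6V1B2 and ATP6V1C1 were not called in either line, and their estimates lay between -0.023 and 0.090.

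Set side by side, 10 genes were called in the same direction in both lines. CTSC and GLA were higher, and CD63, SCARB2, CTSD, CTSL, GAA, PSAP, TPP1 and GRN were lower. These were 2 higher and 8 lower out of 37, beside 8.53% and 5.83% of all 19406 genes with a test in each line. LAMP2 and CTSB were called higher in 769-P and lower in CAKI-1, as were 0.675% of all genes. A further 4 genes were called higher in 769-P only, 5 lower in 769-P only and 6 lower in CAKI-1 only among the 37 genes tested in both, and 10 were called in neither line. Over all genes these shares were 13.4%, 13.9%, 3.27% and 51.1%. None of the 37 was higher in CAKI-1 only (2.52% of all genes) or lower in 769-P and higher in CAKI-1 (0.644%). A call in 1 line only does not show a difference between lines, which rests on the interaction test. By that test 11 of the 37 genes had a higher log2 fold change in 769-P than in CAKI-1 and 2 (TFE3 and ATP6V0A1) a lower one, against 10.9% and 10.1% of all genes. Of 7 genes with a promoter sequence that were lower in both lines, 3 held CACGTG and 2, CTSD and GAA, held GTCACGTG. In 769-P, CACGTG stood in 3 of 12 genes called lower, 1 of 5 called higher and 3 of 10 not called. GTCACGTG stood in 2, 1 and 3 of them. In CAKI-1, CACGTG stood in 5 of 12 called lower, 0 of 2 called higher and 3 of 14 not called, and GTCACGTG in 3, 0 and 3. A link between motif and call was not tested. LAMP1, with 6 matches to GTCACGTG, was called in neither line.

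**Figure D4:**
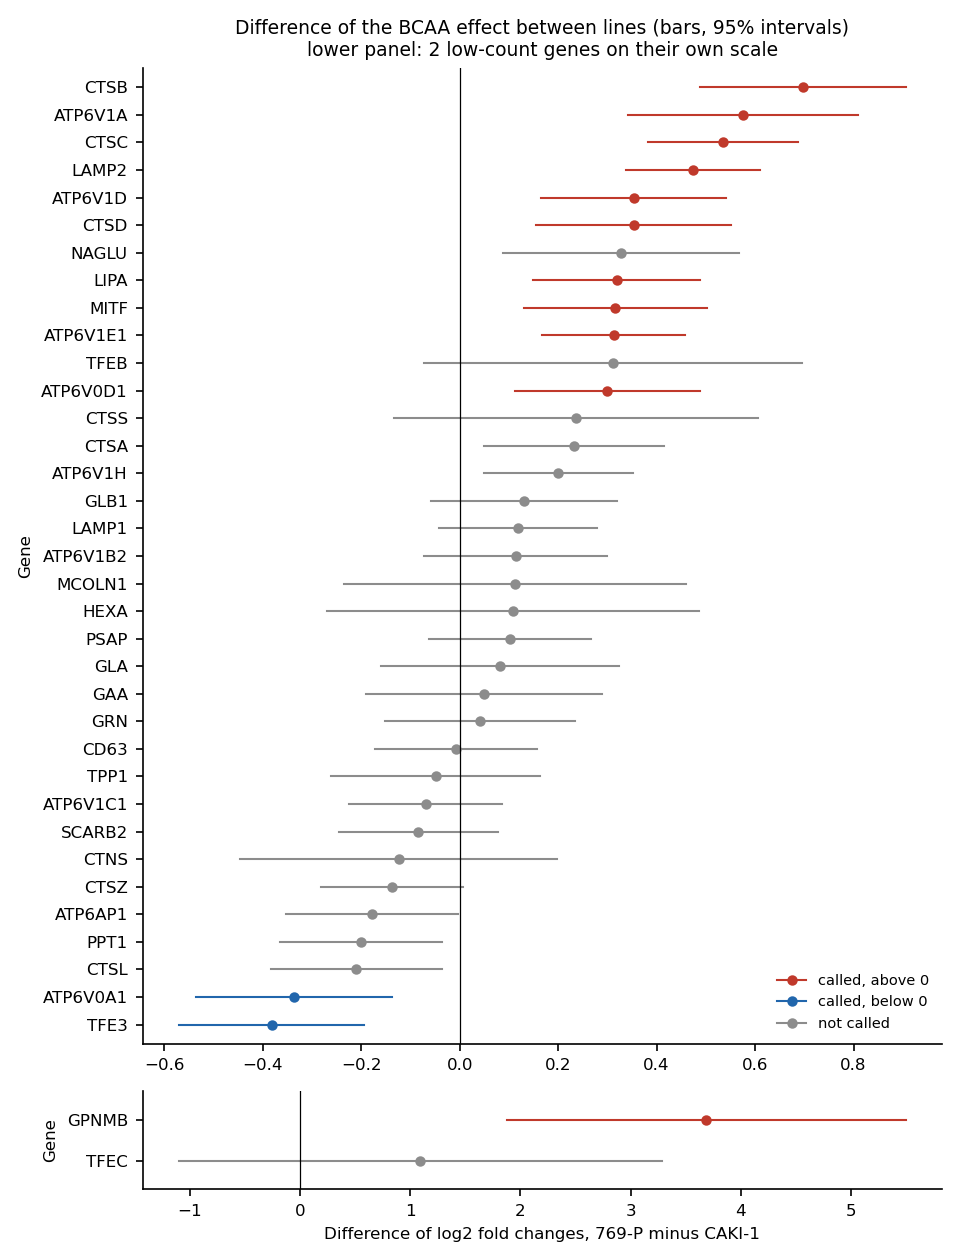
Difference of the log2 fold changes, 769-P minus CAKI-1 (x axis), for the 37 genes tested in both lines, with 95% intervals from 1 limma fit over 8 libraries. Red and blue mark differences called above and below 0, and grey those not called. CTSB has the largest called difference among the genes of the upper panel, TFE3 the lowest, and the lower panel shows the low-count genes GPNMB and TFEC on a wider scale.

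Further genes of the pathway were counted from lists written by role, to be read beside the 18.2% lower and 20.3% higher of all genes in 769-P and the 9.05% and 10.8% in CAKI-1. Of 28 other lysosomal hydrolases tested in 769-P, 11 were called lower (39.3%) and 7 higher (25%), and of 29 in CAKI-1, 8 were lower (27.6%) and 2 higher (6.90%). In 769-P the called genes included CTSV, a cathepsin L paralog (log2 fold change 2.11, adjusted p = 3.3e-05), and IDUA, which degrades dermatan and heparan sulfate (-0.83, adjusted p = 4e-05). In CAKI-1 the largest changes were those of ARSB, a sulfatase (0.82, adjusted p = 0.00013), MANBA, a β-mannosidase (-0.62, adjusted p = 0.00077), and FUCA1, a fucosidase (-0.58, adjusted p = 0.0011). Of 22 other membrane proteins, 6 were lower (27.3%) and 4 higher (18.2%, below the share of all genes) in 769-P, with the largest changes in ABCB9, a peptide transporter (1.20, adjusted p = 0.00016), NPC1, the cholesterol exporter (-0.88, adjusted p = 3.3e-08), and CLCN7, a chloride transporter (-0.65, adjusted p = 2e-05). In CAKI-1, 3 were lower (13.6%) and 1 higher (4.55%). Those called with a mean value of at least 10 were led by TPCN1, a cation channel (-0.44, adjusted p = 0.0038). TMEM106B (-0.28, adjusted p = 0.014) and LAPTM4B (0.27, adjusted p = 0.0035) came next. For 13 other V-ATPase subunits the counts were 2 lower (15.4%, below the share of all genes) and 4 higher (30.8%) in 769-P and 2 lower (15.4%) and none higher in CAKI-1. ATP6V0A4, an a-subunit of kidney intercalated cells, rose most in 769-P (2.40, adjusted p = 2.4e-05), followed by ATP6V0E2 (0.73, adjusted p = 8.3e-05) and ATP6V0E1 (0.64, adjusted p = 2.4e-07). ATP6V1G1 (-0.39, adjusted p = 0.001) and ATP6V1F (-0.35, adjusted p = 0.014) fell in CAKI-1.

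A list of 11 genes serves the delivery of enzymes to the lysosome through the mannose 6-phosphate system and related sorting. In 769-P, 3 were lower and 3 higher (27.3% each), with GGA2, a clathrin adaptor (0.75, adjusted p = 1.3e-07), IGF2R, the mannose 6-phosphate receptor (-0.64, adjusted p = 1.5e-06), and SORT1, sortilin (0.50, adjusted p = 0.0015), changed most. In CAKI-1, 4 were lower (36.4%) and none higher, with SUMF1, which activates sulfatases (-0.56, adjusted p = 0.00065), GNPTG, of the enzyme that adds the tag (-0.51, adjusted p = 0.0025), and IGF2R (-0.28, adjusted p = 0.029) changed most. Of 21 genes that control the MiT/TFE factors, such as Rag GTPases and mTORC1 subunits, 11 were lower (52.4%) and 8 higher (38.1%) in 769-P, and 1 was lower (4.76%) and 2 higher (9.52%) in CAKI-1, both below the shares of all genes there. RRAGC, the Rag GTPase that presents TFEB to mTORC1, was lower in both lines (-0.74, adjusted p = 2.3e-06 in 769-P and -0.57, adjusted p = 0.00089 in CAKI-1). PPP3CA, the catalytic subunit of the calcineurin that dephosphorylates TFEB, was higher in 769-P (0.62, adjusted p = 7.9e-07), and RRAGD lower (-0.48, adjusted p = 0.00056). XPO1, the exportin that returns TFEB to the cytoplasm, was higher in CAKI-1 (0.56, adjusted p = 0.00015), as was PPP3R1 (0.26, adjusted p = 0.022).

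A set of 14 targets of the MiT/TFE factors outside the lysosome, many of them in autophagy, had a median log2 fold change of -0.29 in 769-P and -0.22 in CAKI-1. FLCN, FNIP2 and RRAGD stand both in this set and in the control list above, so the counts of the 2 lists are not independent. In 769-P, 7 were lower (50%, beside 18.2% of all genes) and 3 higher (21.4%, beside 20.3%), and in CAKI-1, 5 were lower (35.7%, beside 9.05%) and none higher (beside 10.8%). SESN2, the leucine sensor of the mTORC1 pathway, was lower in 769-P (-1.75, adjusted p = 3.5e-10) and in CAKI-1 (-0.33, adjusted p = 0.01). MAP1LC3B, which coats autophagosomes, was also lower in 769-P (-1.51, adjusted p = 4.1e-10). SQSTM1, the autophagy receptor p62, was lower in 769-P (-0.91, adjusted p = 9.2e-09) and in CAKI-1 (-0.88, adjusted p = 6e-05), and VPS11, a tethering subunit, was lower in CAKI-1 (-0.55, adjusted p = 0.00055).

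**Figure D5:**
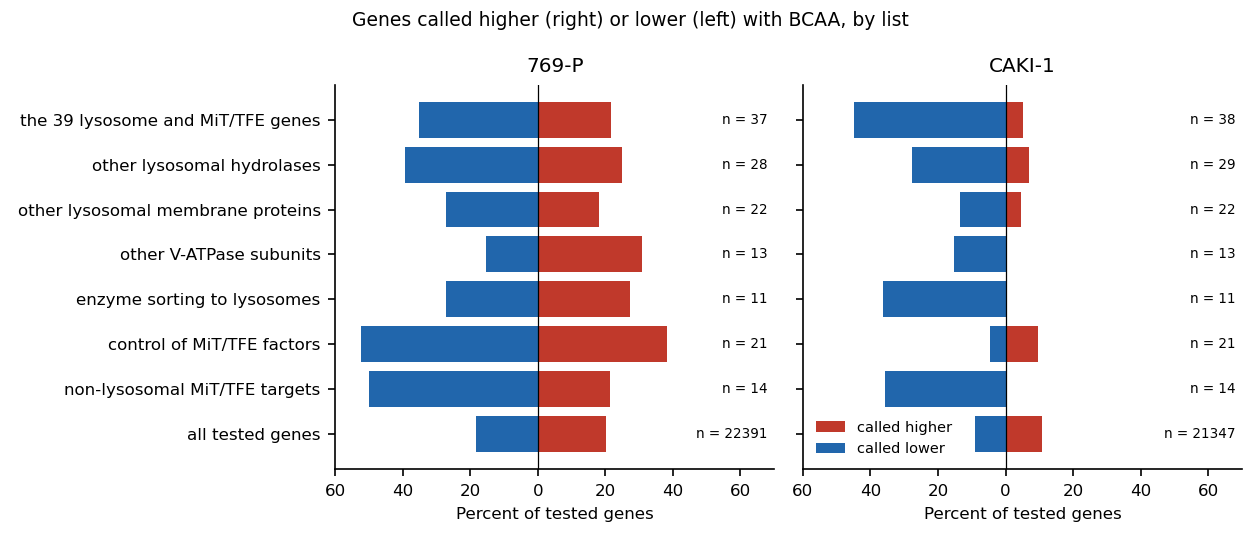
Percent of the tested genes of each list called higher (right, red) or lower (left, blue) with BCAA in 769-P and CAKI-1, with the number tested beside each bar pair and all tested genes in the bottom row. In CAKI-1 the blue bars of 6 of the 7 lists are longer than that of all genes (9.05%), and in 769-P the control list has the longest bars on both sides.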

How the data were processed

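RNA was extracted with the RNeasy kit and sequenced by the HudsonAlpha Institute. The submitters' processing notes name Trim Galore, TopHat2 2.1.0, SAMtools 1.3.1, HTSeq 0.6.0, DESeq, DESeq2 and the build hg38, without their order. The annotation and strand setting are not given in the sources used here. For each line the authors deposited a signal per gene, the read count divided by a size factor of its library. All values (100%) came to whole reads when multiplied by that factor (tolerance 0.01 reads). The tables were normalised apart from each other, so levels were compared only within a line.

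Ensembl identifiers were matched to symbols (25032 of 25431 in 769-P and 23881 of 24190 in CAKI-1), and gene coordinates and exon lengths came from GENCODE 29 (GRCh38). Within each line, limma 3.58.1 (R 4.3.3, moderated by an intensity trend) was run on log2(value + 1) of all genes whose mean reached 1. No block for the replicate number was used, and calls were made at a Benjamini-Hochberg adjusted p under 0.05 over all genes. The difference between lines was the interaction term of 1 fit over the 8 libraries. With 2 libraries against 2, an exact permutation test of 1 gene could not go below p = 0.333, so none was run. Alternatives changed the pseudocount, the low-value filter, the scaling, the fold threshold, the block, the libraries that give the spread, the libraries included and the test (edgeR 4.0.16 and DESeq2 1.42.0 on recovered reads). On simulated reads the main test recovered 82% of 100 genes changed by 1 log2 unit and 61% of 100 changed by 0.5 in 769-P (22269 genes tested, 0 false calls), and 82% and 50% in CAKI-1 (21246 genes tested, 2 false calls). The interaction test recovered 73% and 42% (19128 genes tested, 6 false calls).

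The genes and lists were chosen with earlier results of these data known. Named with values in each library were the MiT/TFE factors and, per role and line, up to 5 called genes without overlap between conditions. From each further list, the 3 called genes with the largest change and a mean value of at least 10 were named per line, except 1 that is not reported here. CTSB in CAKI-1, the sixth in its role there, was added after its values were seen. Libraries of the same condition differed by more than sampling noise (chi-square per degree of freedom 3.26 to 11.9), and each was counted as its own sample.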

Additional observations from a re-analysis of the deposited data

Results flagged for a closer look

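The BCAA effect differed between the lines, by the interaction term of limma, for 13 genes, all given as the log2 fold change in 769-P minus that in CAKI-1. It was above 0 for GPNMB (3.69), CTSB (0.70), ATP6V1A (0.58), CTSC (0.53), LAMP2 (0.47), CTSD (0.35), ATP6V1D (0.35), LIPA (0.32), MITF (0.32), ATP6V1E1 (0.31) and ATP6V0D1 (0.30). It was below 0 for TFE3 (-0.38) and ATP6V0A1 (-0.34). LAMP2 and CTSB were called in opposite directions in the 2 lines, while CTSC was higher and CTSD lower in both and only the size differed. The 769-P value of GPNMB rests on 1 to 18 reads per library.

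For 6 of the 13 the call was lost when single libraries were left out, and the direction was kept. ATP6V0D1 lost it without 769-P with-BCAA replicate 1 (0.28, adjusted p 0.086) or 2 (0.32, 0.051), without 769-P without-BCAA replicate 1 (0.23, 0.13), without CAKI-1 with-BCAA replicate 1 (0.25, 0.071), and without CAKI-1 without-BCAA replicate 1 (0.30, 0.07) or 2 (0.30, 0.059). MITF lost it without 769-P with-BCAA replicate 2 (0.30, 0.065), without 769-P without-BCAA replicate 1 (0.33, 0.055) or 2 (0.31, 0.068), without CAKI-1 with-BCAA replicate 2 (0.25, 0.053) and without CAKI-1 without-BCAA replicate 1 (0.31, 0.056). CTSD lost it without 769-P with-BCAA replicate 2 (0.35, 0.052), without 769-P without-BCAA replicate 1 (0.34, 0.063) or 2 (0.36, 0.052), and without CAKI-1 without-BCAA replicate 1 (0.30, 0.071). ATP6V0A1 lost it without 769-P with-BCAA replicate 2 (-0.30, 0.078), without 769-P without-BCAA replicate 1 (-0.31, 0.082) and without CAKI-1 without-BCAA replicate 1 (-0.33, 0.053). ATP6V1D lost it without 769-P without-BCAA replicate 1 (0.32, 0.055), and LIPA without CAKI-1 without-BCAA replicate 1 (0.28, 0.055). The other 7 kept their call in each fit that left out 1 library. No cause of these differences was tested.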

How the results depend on the processing

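Counts of the lysosome genes stayed within 1.5 times the reported ones under the other pseudocount, filters and count tests. edgeR called 14 lower and 11 higher in 769-P, beside 3920 and 4874 of all genes. In CAKI-1 edgeR called 17 lower and 2 higher, beside 2160 and 2237 of all genes. With a fold change of at least 1.5, 3 genes were higher and 3 lower in 769-P and 2 higher and 5 lower in CAKI-1 (over all genes 1984 higher and 1911 lower, and 725 and 481). In CAKI-1, 4 were higher under median centring, equal library totals and the spread of 8 libraries, beside 2647, 2512 and 2654 of all genes. Under quantile normalization 1417 of all genes were higher there. With 1 library left out and the spread of the 7 others, 8 to 9 were higher and 11 to 13 lower in 769-P, 2 to 3 higher and 10 to 16 lower in CAKI-1 (10 without without-BCAA replicate 1, and 11 without with-BCAA replicate 1 or without-BCAA replicate 2), of all genes 3375 to 3603 higher and 2860 to 3109 lower in 769-P and 1918 to 2497 and 1528 to 2191 in CAKI-1, and 7 to 13 had a higher and 1 to 3 a lower effect in 769-P than in CAKI-1 (7 and 1 without 769-P or CAKI-1 without-BCAA replicate 1). That pooled fit replaced, after its results were seen, fits of the 3 remaining libraries of a line, which have 1 residual degree of freedom. These called 0 genes in CAKI-1 (2312 to 2965 higher and 1923 to 2722 lower at an unadjusted p under 0.05), and in 769-P 1493 to 2211 higher and 1354 to 1510 lower, of the lysosome genes 4 to 8 and 5. Outside left-out libraries, the calls of PPT1 (median centring, adjusted p 0.07), PSAP (quantile normalization, -0.072, 0.055) and CTNS (DESeq2, 0.051) were lost in 769-P, and those of ATP6V1E1 (0.074) and ATP6V1H (0.07) in CAKI-1 under median centring, beside those of LAMP2, CD63, SCARB2 and CTSB under several settings.

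Same-numbered libraries did not deviate together (correlation 0.0095 in 769-P and 0.021 in CAKI-1). With the number as a replicate block, 14 of the genes were lower and 8 higher in 769-P, beside 4233 and 4692 of all genes. The block gave 14 lower and 3 higher in CAKI-1, beside 1803 and 2133 of all genes. LAMP2 (adjusted p 0.075), CD63 (0.055) and SCARB2 (0.053) in CAKI-1, and the difference of ATP6V0D1 (0.05), were not called under it.

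Signs changed only for estimates that were not called. In 769-P these were LAMP1 (0.0055 under median centring and 0.0046 under quantile normalization), ATP6V1C1 (0.038 under median centring, 0.015 with equal totals and 0.020 with edgeR), ATP6V1H (0.026, 0.0027 and 0.0078), LIPA (-0.031, quantile) and CTSS (-0.042, thinned). In CAKI-1 they were ATP6V1B2 (0.018, median), GLB1 (-0.038, quantile), PPT1 (-0.046, quantile, and -0.0012, edgeR), ATP6V1D (-0.033 and -0.0030) and TFEC (0.12, thinned), and for the difference between lines CD63 (0.046, quantile). With 1 library left out, the 769-P values ran from -0.016 to 0.068 for CTSZ, -0.084 to 0.015 for LAMP1, -0.0086 to 0.0045 for ATP6V1C1, -0.19 to 0.041 for MCOLN1, -0.039 to 0.32 for CTSS and -0.035 to 0.0060 for ATP6V1H. In CAKI-1 they ran from -0.014 to 0.13 for MITF, -0.11 to 0.068 for ATP6V1B2, -0.026 to 0.047 for ATP6V1D, -0.22 to 0.081 for TFEB, -0.034 to 0.056 for PPT1, -1.27 to 0.64 for TFEC and -0.015 to 0.080 for GLB1. The differences ran from -0.077 to 0.17 for GAA, -0.095 to 0.078 for CD63, -0.0032 to 0.23 for MCOLN1, -0.097 to 0.31 for HEXA, -0.13 to 0.034 for TPP1 and -0.061 to 0.14 for GRN. The cause was not tested.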
